A study of Drosophila melanogaster with 75 samples.

Results

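The comparison pools both exposed arms of a study on male courtship in the fruit fly Drosophila melanogaster, 10 of the 15 arrays, and sets them against the 5 control arrays. Its members were chosen by arm alone, so no measured value decided which arrays were used. All pools came from 5-day-old males of Canton-S, a wild-type laboratory strain that had been isogenized, and each array carried RNA from the heads of its own pool of 20 males. The males had grown up in groups and were isolated on day 4. Males of the courtship arm (5 arrays) were kept for 20 min with a virgin female that had been cauterized, and the control arm (5 arrays) went through a mock exposure of 20 min with no female. The remaining 5 arrays belong to an arm titled male, labelled with the same treatment text as courtship. The labels therefore do not settle what those males met. All 3 arms, control too, carry a label saying that the collected males courted for most of that period. The labels name no batch, and p-values below measure the spread between pools. In the pooled comparison, the difference between the exposed arms also counts as error.

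Courtship is an innate behaviour that a male builds from smell, taste, sight and touch, and the sexually dimorphic products of fruitless and doublesex shape the neurons that run it. Head RNA comes from the brain and the compound eyes, and also from the fat body, a tissue that surrounds the brain, stores nutrients and secretes peptides and binding proteins into the blood. The comparison asks which transcripts stood on the same side of the controls after either exposure.

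Expression is given as log2 of the GC-RMA intensity (a probe-level summary corrected for background by probe sequence), and 8926 of 18769 probe sets, with a mean of at least 4, were tested. The 3'-to-5' ratio, a log2 mean over 5 pairs of control probe sets that is higher in more degraded RNA, was 3.99 in male array 1, 3.26 in male array 5 and 3.54 in control array 1, and it lay between 2.50 and 2.90 in the other 12 arrays. The first principal component held 45.9% of the variance, with male arrays 1 and 5 at -46.2 and -38.3 and the others between -7.29 and 24.4. Heads expressed the markers of their tissues in every arm, among them the neuronal gene nSyb (10.72 in control, 10.70 in courtship and 9.67 in male arrays), the glial gene repo (9.94, 9.98 and 10.02) and the fat body gene apolpp (14.77, 14.80 and 14.79). Markers of accessory gland and testis (Acp26Aa, Acp36DE, SP, Mst87F) and the yolk and eggshell genes Yp1, Yp2 and Cp36 lay below the tested range, while Yp3 read 9.57, 9.62 and 9.67. In whole heads, fewer cells of a type and less RNA per cell cannot be told apart.

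With the 10 exposed arrays set against the 5 controls, none of the 8926 probe sets passed the adjusted threshold of 0.05 in limma (0 called, 0.00%), and the smallest adjusted p was 0.056. With each arm as its own group, so that only the spread within arms counts as error, 4 were called (smallest adjusted p in limma 0.0223). At an unadjusted p under 0.05 the pooled comparison gave 1445 probe sets (16.2%), of which 895 stood higher (10%) and 550 lower (6.16%) after exposure. With the opening letter of the sample codes as a block, letters of unstated meaning that recur only in part across the arms, that number was 421 and the smallest adjusted p 0.76. All 1445 had the sign of the pooled difference in the courtship arm alone and in the male arm alone. That outcome was nearly fixed in advance, since a gap between the arms counts as error in the pooled fit, so it tests nothing. Over all tested probe sets 6935 (77.7%) had 1 sign in both arms, 42.5% higher and 35.2% lower, and both arms were read against the same 5 control arrays. The unadjusted threshold was passed in the pooled comparison and in each arm alone by 186 probe sets (2.08%), 112 of them higher (1.25%) and 74 lower (0.829%). The 10 exposed arrays lay wholly on 1 side of the 5 controls for 21 probe sets (0.235%), 11 above (0.123%) and 10 below (0.112%).

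Since nothing passed in the pooled comparison, the 12 genes higher and the 12 lower with the smallest unadjusted p are described, provided that they had 1 sign in each arm and in 3 of the processings that the authors deposited. They lead the ranking and did not pass the test. Their adjusted p in limma ran from 0.056 to 0.279 and the highest unadjusted p was 0.00107. The higher genes stood 1.18-fold to 2.25-fold above control and the lower genes 1.24-fold to 2.0-fold below it. In 10 of the 24 genes no exposed array overlapped a control, in 19 at least 9 of the 10 exposed arrays lay beyond all controls, and in the rest 8 did. Each of the 24 had an unadjusted p under 0.05 in each arm alone, and these counts follow from ranking by p, so they describe the genes and test nothing.

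**Figure D1:**
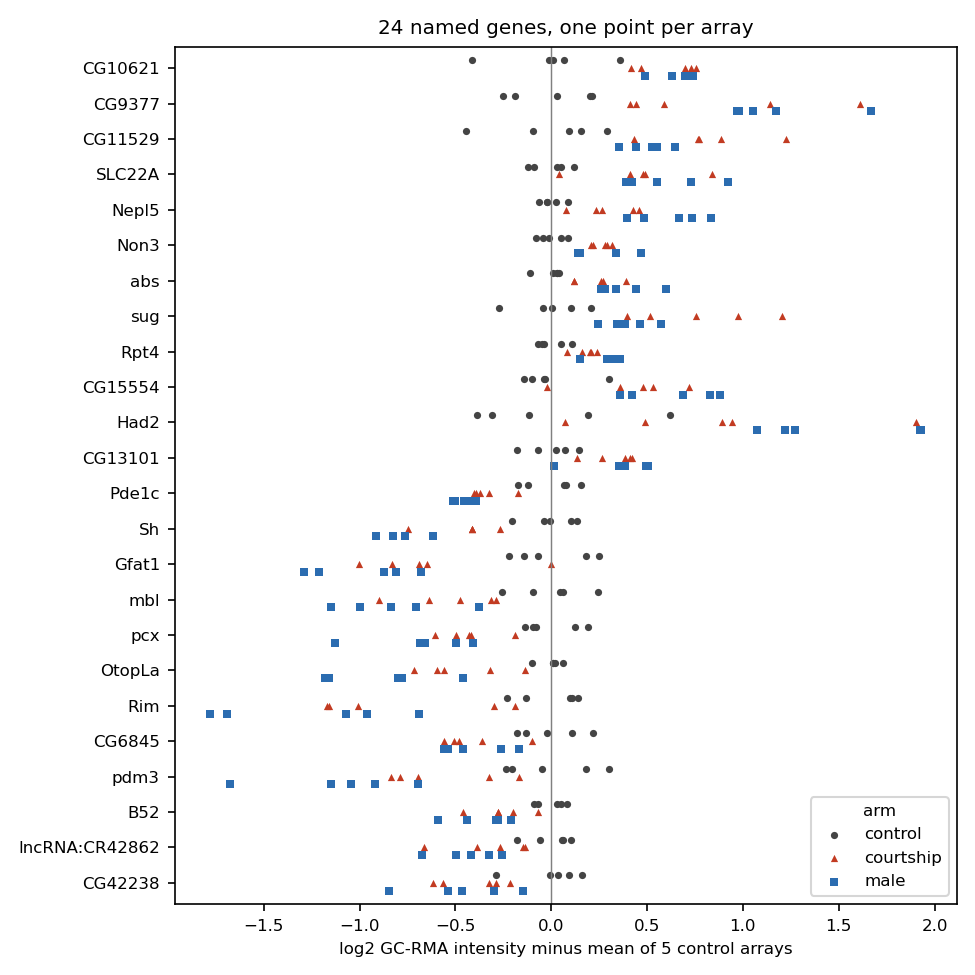
Difference of each array from the mean of the 5 control arrays (log2 GC-RMA intensity) for the 24 leading genes, 12 higher and then 12 lower after exposure, with 1 point per array and the arms by colour and shape. Exposed arrays lie to the right of 0 in the upper genes, except courtship array 2 of CG15554 at 4.76 against a control mean of 4.78. In the lower genes they lie to the left, except courtship array 2 of Gfat1, level with its control mean of 8.67. Exposed and control arrays overlap in 14 genes.

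CG10621, predicted to encode a homocysteine S-methyltransferase, had the smallest p among named genes. Its log2 intensities were 8.68, 9.10, 9.45, 9.16 and 9.08 in control arrays 1 to 5, 9.85, 9.51, 9.56, 9.79 and 9.82 in the courtship arrays, and 9.72, 9.58, 9.72, 9.83 and 9.79 in the male arrays. All 10 exposed arrays lay above the highest control, control array 3, by as little as 0.06. Exposed arrays stood 0.62 ± 0.10 (SE) higher on the log2 scale, or 1.54-fold, with a limma p of 1.26e-05 and an adjusted p of 0.056. The arms were alike in size, 0.61 in courtship and 0.64 in male, and their difference of -0.02 had a 95% interval from -0.28 to 0.23.

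Among metabolic genes, Had2, a hydroxyacyl-CoA dehydrogenase gene, differed most of the 24. It read 5.43, 4.69, 5.00, 4.50 and 4.42 in control, 5.75, 4.88, 5.30, 5.70 and 6.71 in courtship and 5.88, 6.03, 6.08, 6.74 and 6.73 in male arrays. Every male array lay above all controls, while courtship arrays 2 and 3 lay within the control range. Had2 stood 1.17 ± 0.29 higher (2.25-fold, adjusted p in limma 0.279). SLC22A, a transporter gene of a family that carries organic ions, stood 0.53 ± 0.12 higher, with 9 of 10 exposed arrays above all controls. The sugar-responsive zinc-finger gene sug (sugarbabe) read 8.54, 8.64, 8.44, 8.39 and 8.16 in control, 8.95, 8.83, 9.19, 9.41 and 9.64 in courtship and 8.78, 9.01, 8.68, 8.82 and 8.90 in male arrays. No exposed array of sug overlapped a control, and the highest 3 were courtship arrays. Its difference was 0.59 ± 0.14 (1.5-fold, adjusted p in limma 0.279), with 0.77 in the courtship arm and 0.40 in the male arm.

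Peptidases and protease homologues made up 3 of the 12 higher genes. CG9377, a serine protease homologue, read 7.03, 6.81, 6.75, 7.21 and 7.20 in control, 7.44, 7.59, 7.41, 8.14 and 8.61 in courtship and 8.67, 7.98, 8.05, 7.97 and 8.17 in male arrays. Its exposed arrays began 0.20 above the highest control, the widest such gap among the 21 probe sets whose groups did not overlap. CG9377 stood 1.0 ± 0.19 higher (2.0-fold, adjusted p in limma 0.174). CG11529, of the same enzyme family, stood 0.66 ± 0.14 higher, from 4.38 ± 0.29 (SD, n = 5) in control to 5.19 ± 0.28 in courtship and 4.88 ± 0.11 in male arrays, near the lower end of the tested range. Nepl5, a neprilysin-like gene of the metallopeptidases that cleave small peptides, read 8.18, 8.18, 8.29, 8.23 and 8.14 in control, 8.47, 8.28, 8.44, 8.66 and 8.63 in courtship and 8.94, 8.87, 8.60, 8.69 and 9.04 in male arrays. Only courtship array 2 fell within the control range, and Nepl5 stood 0.46 ± 0.11 higher with a limma adjusted p of 0.268.

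Non3, which acts in the nucleolus in ribosome biogenesis, stood 0.26 ± 0.06 higher, and abs (abstrakt), a DEAD-box RNA helicase gene, 0.31 ± 0.07 higher, and neither had an exposed array within the control range. Rpt4, which encodes an ATPase of the proteasome's regulatory particle, stood 0.23 ± 0.06 higher, from 10.17 in control to 10.35 in courtship and 10.46 in male arrays. CG15554 and CG13101, for which no role is given here, stood 0.52 ± 0.13 and 0.34 ± 0.08 higher.

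Among the lower genes, Sh (Shaker) encodes a voltage-gated potassium channel that repolarises neurons and is known for its effect on sleep. Its leading probe set, 1641501_a_at, read 11.88, 12.02, 11.99, 11.85 and 11.68 in control, 11.47, 11.62, 11.47, 11.47 and 11.14 in courtship and 11.27, 11.06, 11.12, 11.27 and 10.97 in male arrays. No exposed array overlapped a control, and courtship array 2 came nearest, 0.06 below control array 5. The difference was -0.60 ± 0.10 (1.51-fold lower, p in limma 3.19e-05, adjusted p 0.0712). Sh had 6 tested probe sets, and all 6 stood lower in both arms, by -0.52 to -0.78 in the pooled comparison. In 1623933_at and 1626802_a_at, 2 further probe sets, the groups did not overlap either, and in the 3 dimmer probe sets, with control means between 5.12 and 6.29, they did.

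**Figure D2:**
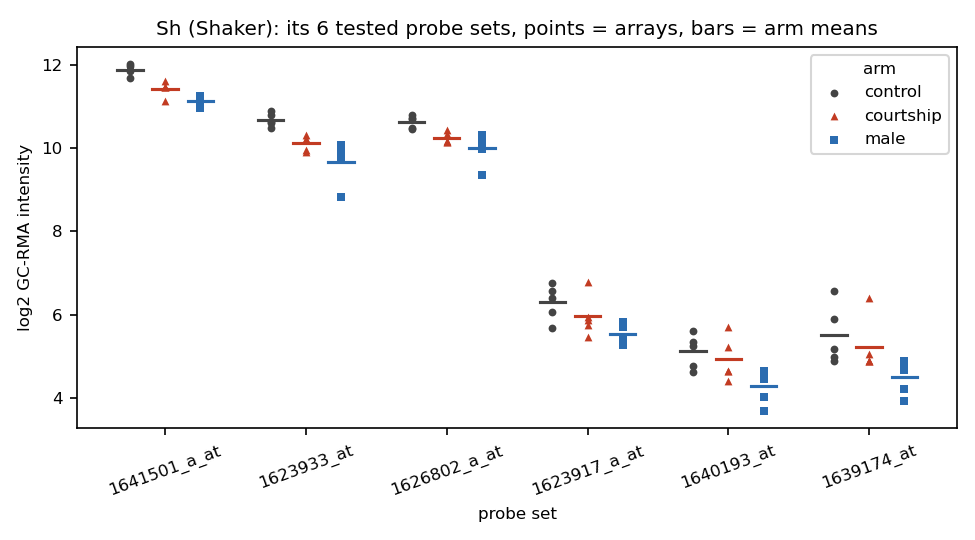
Log2 GC-RMA intensity of the 6 tested probe sets of Sh, with 1 point per array and a bar at the mean of each arm of 5 arrays. The control mean is the highest and the male mean the lowest in each probe set, and the 3 bright probe sets on the left show no overlap of exposed and control arrays.

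Pde1c, a calcium- and calmodulin-dependent phosphodiesterase gene, read 8.84, 8.76, 8.75, 8.56 and 8.51 in control, 8.31, 8.51, 8.36, 8.29 and 8.28 in courtship and 8.18, 8.26, 8.17, 8.23 and 8.29 in male arrays. Courtship array 2 met the lowest control at 8.51, and the other 9 exposed arrays lay below every control. The difference was -0.39 ± 0.07 (1.31-fold lower, adjusted p in limma 0.0712). The other tested probe set of Pde1c, with a control mean of 10.11, differed by -0.40 ± 0.22 and its groups overlapped. There the arms differed from control by -0.17 in courtship and -0.64 in male arrays. Rim, which organises the active zone where presynaptic vesicles release transmitter, read 8.32, 8.56, 8.59, 8.55 and 8.22 in control, 7.28, 8.15, 7.29, 8.26 and 7.44 in courtship and 6.76, 7.38, 7.49, 7.76 and 6.67 in male arrays. Courtship array 4 alone lay within the control range, and the lowest arrays were male 1 and male 5. Rim differed by -1.0 ± 0.22 (2.0-fold lower, adjusted p in limma 0.254), and its other tested probe sets were lower by -0.56 and -0.93. OtopLa, a gene of the otopetrin proton channels, differed by -0.67 ± 0.14 with no overlap, from 8.81 ± 0.06 in control to 8.34 ± 0.23 in courtship and 7.93 ± 0.30 in male arrays (SD, n = 5), while its other probe set differed by -0.10.

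Regulators of transcription and RNA made up 3 more lower genes. mbl (muscleblind), a splicing factor, differed by -0.67 ± 0.14 in its leading probe set with no overlap of the groups, and 3 of its other 4 probe sets were lower while 1 stood 0.21 higher. The POU-domain transcription factor gene pdm3 differed by -0.83 ± 0.19, from 8.53 in control to 7.96 in courtship and 7.43 in male arrays. Its other probe set differed by -0.26 ± 0.11. B52, an SR-protein splicing factor gene, differed by -0.31 ± 0.07, and its other 3 probe sets were lower too. pcx (pecanex), which encodes a membrane protein of the Notch pathway, differed by -0.55 ± 0.12 with no overlap. Gfat1, the gene of the enzyme that starts hexosamine synthesis, differed by -0.80 ± 0.16 in 1635696_s_at, while its other probe set stood 0.05 higher, so its probe sets disagree. In 1635696_s_at courtship array 2 read 8.67, level with the control mean of 8.67. CG6845, CG42238 and the non-coding lncRNA:CR42862, with no role given here, differed by -0.40 ± 0.09, -0.43 ± 0.11 and -0.38 ± 0.09. Of the 24 genes, 15 had a single tested probe set, and 18 of the 20 other probe sets of the remaining 9 had the sign of the leading one.

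The probe set with the smallest p of all, 1635258_s_at, carries no gene symbol in the annotation used. It read 9.29, 9.60, 9.33, 9.68 and 9.24 in control, 8.87, 9.08, 8.96, 8.83 and 8.54 in courtship and 8.65, 8.64, 8.68, 8.83 and 8.45 in male arrays. Every exposed array lay below every control, and the difference was -0.67 ± 0.10 (1.60-fold lower, p in limma 8.68e-06, adjusted p 0.056).

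Beyond the 24, exposed and control arrays did not overlap for 7 further genes, named here after their values were seen. Higher were Smyd3, Polr2M, Prosalpha4, Debcl and CG9630. Prosalpha4, a subunit of the proteasome's catalytic core, read between 9.50 and 9.54 in the 5 control arrays and between 9.59 and 10.03 in the exposed arrays, a difference of 0.25 ± 0.07. Debcl, a gene of the Bcl-2 family that governs cell death, stood 0.20 ± 0.06 higher, and Smyd3, of the SET and MYND domain family, 0.28 ± 0.07 higher. Lower were Rab3-GEF, an exchange factor for the synaptic vesicle protein Rab3 (-0.25 ± 0.07), and Glut4EF (-0.26 ± 0.10). The gap between the nearest exposed and control arrays was 0.052 at most in these 7 genes.

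The 24 genes were chosen to have 1 sign in each arm. The difference from control was larger in the male arm for 20 of them and in the courtship arm for CG11529, sug, Non3 and CG6845. Between the arms, courtship against male, 0 of 8926 probe sets passed the adjusted threshold in limma (0.00%, smallest adjusted p 0.0938), and 1354 (15.2%) had an unadjusted p under 0.05. Of the 24, 6 were among those 1354, with adjusted p between 0.325 and 0.329. In Sh the courtship arm stood 0.29 above the male arm (95% interval 0.09 to 0.50), in OtopLa 0.41 (0.12 to 0.70) and in pdm3 0.53 (0.14 to 0.91). It also stood above the male arm by 0.37 in sug (0.07 to 0.66) and by 0.31 in CG11529 (0.00 to 0.62), whereas in Nepl5 courtship minus male was -0.33 (-0.52 to -0.14). For Non3, CG6845, CG13101 and CG10621 the arms differed by at most 0.02 in size, yet the intervals reach from -0.14 to 0.17 in Non3 and from -0.23 to 0.18 in CG13101, so equal responses are not shown.

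**Figure D3:**
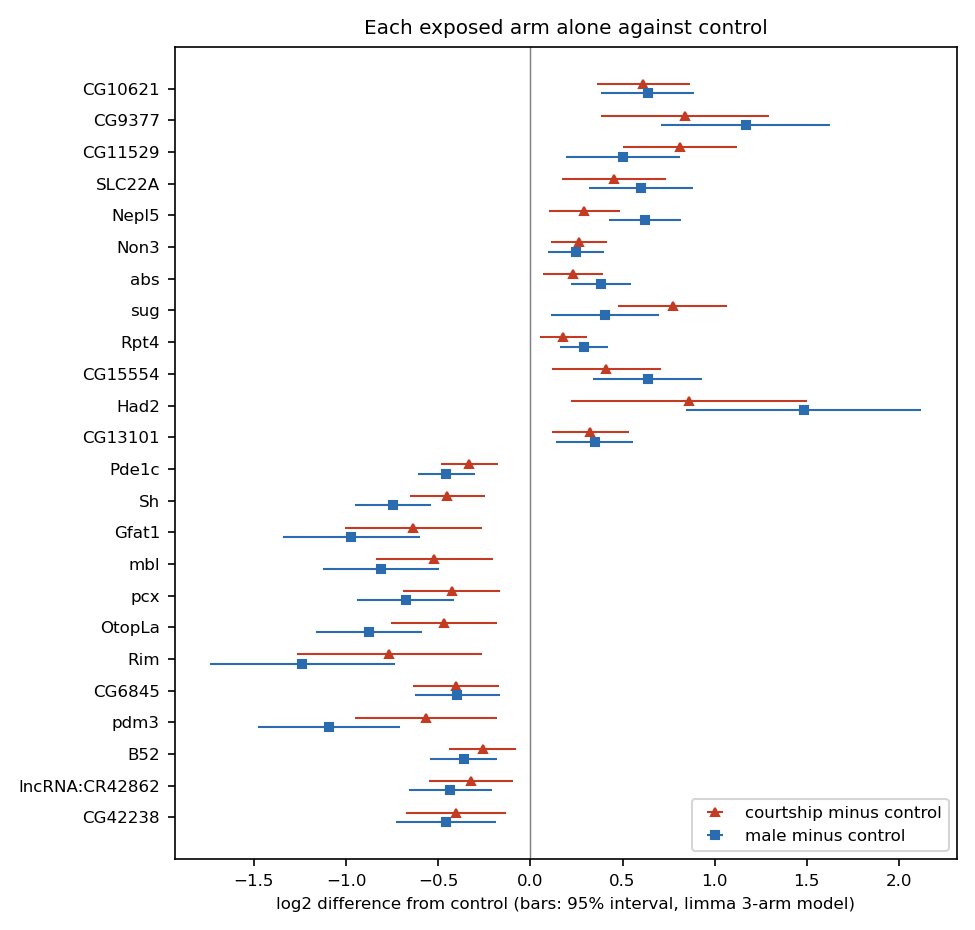
Difference of each exposed arm from control on the log2 scale for the 24 leading genes, with bars for the 95% interval from the limma model of 3 arms. Both arms lie on 1 side of 0 for all 24 genes, and both share the 5 control arrays.

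A single exposed array bears on the count of calls. When each of the 15 arrays was left out in turn, 13 left 0 called and control array 3 left 1 (CG10621, adjusted p in limma 0.014). Courtship array 2 left 163 (1.83%), 129 higher (1.45%) and 34 lower (0.381%). Each of the 163 had 1 sign in both arms, which the pooled fit nearly fixes in advance. Among the 24 genes, courtship array 2 was the exposed array nearest to the control mean in 15, and male array 5 was the farthest in 14. Without courtship array 2, 23 of the 24 genes passed, with CG10621 at 0.65 (adjusted p in limma 0.0162), Sh at -0.64 (0.016), Pde1c at -0.42 (0.0137) and Gfat1 at -0.89 (0.00877). CG6845 did not. Leaving out the exposed array that most often lay nearest to the controls lowers p for such genes, so these passes are no test. The labels give no reason to leave courtship array 2 out, and its 3'-to-5' ratio was 2.66, within the range of the 12 arrays.

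**Figure D4:**
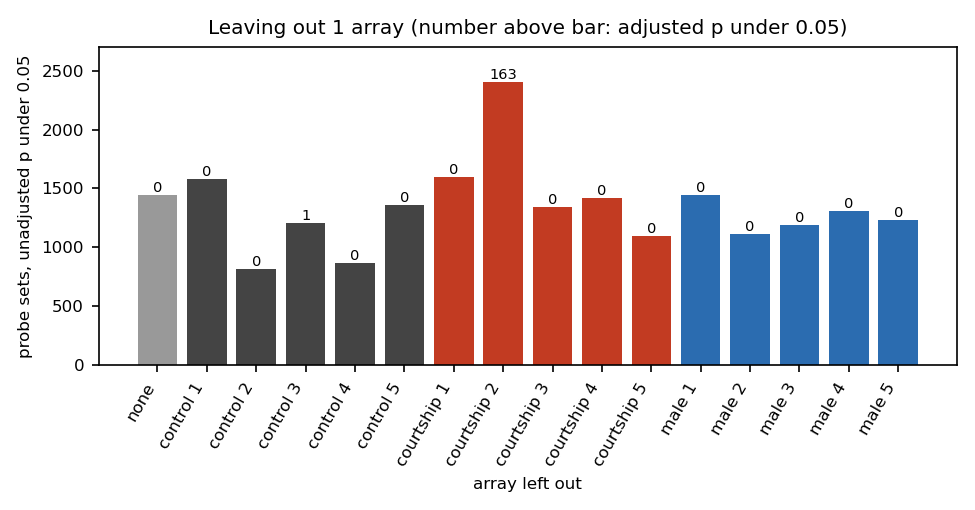
Number of probe sets with an unadjusted p under 0.05 with all arrays (none) and with each array left out, and, above each bar, the number past the adjusted threshold. The bar without courtship array 2 reaches 2407 against 1445 with all arrays, and the lowest, without control array 2, is 817.

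The wider pattern was read over lists of related genes, each gene represented by its brightest probe set. Over the 7313 genes, 808 (11.0%) stood higher and 387 (5.29%) lower at an unadjusted p under 0.05, 4109 had a positive difference, and the median difference was 0.02. In both arms at once 45.2% of these genes stood higher and 32.9% lower than control. No member of any list passed the adjusted threshold in the pooled comparison, so the counts that follow are at the unadjusted one and set beside these shares. With the sample-code letter as a block the shares over all genes were 3.31% higher and 1.44% lower, and fewer members passed: 7 of 20 neprilysins, 3 of 27 proteasome subunits, 2 of 69 mitochondrial ribosomal proteins and 4 of 57 cytochrome P450 genes on the higher side, and 3 of 18 potassium channel, 2 of 14 sodium and calcium channel and 2 of 30 presynaptic genes on the lower side. Genes of a list share arrays and are not independent, and no list was tested as a whole. List counts given below with 1 array left out are to be read beside the count over all 8926 probe sets. That count was 1445 with all arrays, 817 without control array 2, 869 without control array 4 and 2407 without courtship array 2. It lay between 1093 and 1596 when any other array was left out.

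**Figure D5:**
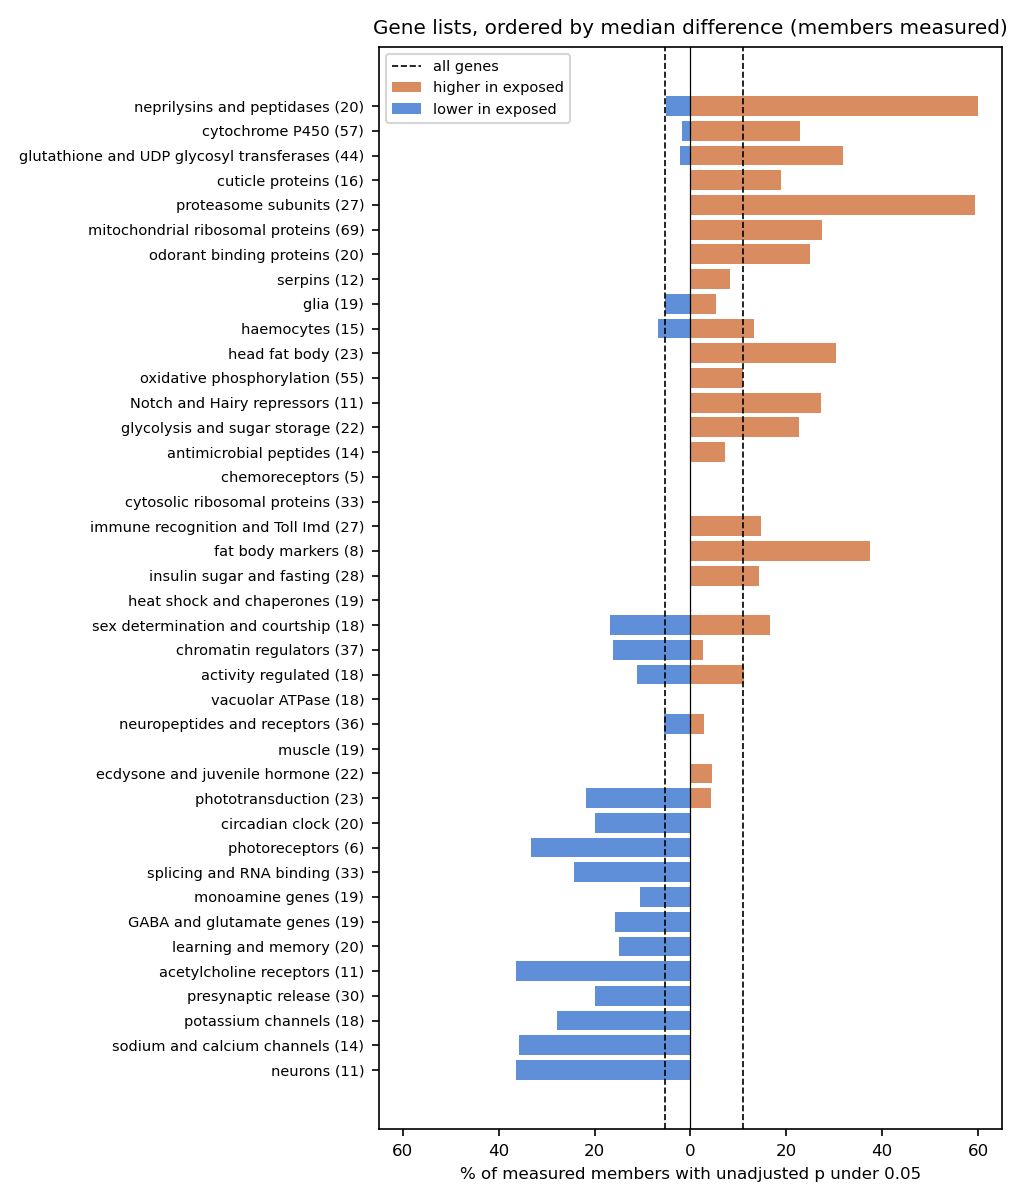
Percent of measured members of each gene list with an unadjusted p under 0.05, higher to the right and lower to the left, with lists ordered by median difference and the number of measured members in brackets. Dashed lines mark the shares over all 7313 genes, 11.0% higher and 5.29% lower.

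Neprilysins, zinc metallopeptidases that degrade signalling peptides and have neprilysin-like relatives in large numbers in the fly, had the highest median of all lists. Of 20 measured, 17 had a positive difference and 12 (60%) passed the unadjusted threshold on the higher side, with 1 on the lower. The median difference was 0.36, with 0.24 in the courtship and 0.44 in the male arm. After Nepl5 came Nep7 (0.41 ± 0.12), Nepl13 (0.51 ± 0.15) and Nepl15 (0.39 ± 0.12), and Nepl15 was bright, from 10.9 in control to 11.2 and 11.4 in the exposed arms. Nepl19 (0.58 ± 0.24) and Nepl12 (0.58 ± 0.19) had the greatest differences of the list, whereas Nepl16 differed by -0.13 ± 0.06. Nep1, Nep3 and Nep4, at -0.07, -0.12 and 0.01, did not pass. The count stayed between 10 and 15 with any 1 array left out.

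Proteasome subunits, which form the complex that degrades ubiquitin-tagged proteins, differed little, but nearly all in the same direction. Of 27 measured, 26 had a positive difference and 16 (59.3%) passed the unadjusted threshold, all higher, with a median of 0.19 (0.09 in courtship, 0.27 in male arrays). Core subunits such as Prosalpha3 (0.24 ± 0.08) and Prosbeta5 (0.24 ± 0.08) and regulatory subunits such as Rpn7 (0.19 ± 0.06) and Rpt3 (0.20 ± 0.07) were of like size. The count fell to 7 without control array 2, to 8 without control array 4, to 9 without courtship array 5 or male array 2, and to 10 without male array 1, 3, 4 or 5.

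Proteins of the mitochondrial ribosome showed the same direction, with 68 of 69 positive, 19 (27.5%) past the unadjusted threshold on the higher side and a median of 0.16 (0.10 and 0.24 in the arms). mRpL46 led at 0.21 ± 0.06. That count depended on single arrays, 2 without control array 4, 7 without control array 5, 11 without control array 2, 38 when control array 1 was left out and 40 when courtship array 2 was. Among nuclear-encoded subunits of oxidative phosphorylation 50 of 55 were positive with a median of 0.07, and 6 (10.9%) passed, near the share over all genes, with 3 without control array 4, 13 when control array 1 was left out and 15 when courtship array 2 was. Cytosolic ribosomal proteins had 31 of 33 positive, 25 of them in both arms, and a median of 0.03. None passed the threshold in limma at the unadjusted or the adjusted level. Without control array 5, 1 passed the unadjusted one, and 3 did when courtship array 2 was left out. The median was -0.01 in the dChip PM-MM values.

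Detoxification enzymes, which oxidise or conjugate foreign and endogenous compounds and are made largely in fat body and gut, stood higher too. Cytochrome P450 genes had 54 of 57 positive, 13 (22.8%) higher and 1 lower at the unadjusted threshold, and a median of 0.20, led by Cyp9c1 (0.38 ± 0.11). In both arms 46 of the 57 stood higher, with medians of 0.125 in courtship and 0.30 in male arrays. Glutathione and UDP-glycosyl transferases had 41 of 44 positive, 36 of them in both arms. At the unadjusted threshold 14 (31.8%) passed higher and 1 lower, and the median was 0.20 (0.13 in courtship, 0.26 in male arrays). Ugt37B1 led the transferases at 1.01 ± 0.28, with 8 of 10 exposed arrays above all controls. It went from 5.75 ± 0.43 in control to 6.45 ± 0.62 in courtship and 7.07 ± 0.47 in male arrays (SD, n = 5). The P450 count was 6 with control array 2 left out, 7 with control array 1 left out and 28 with courtship array 2 left out. The transferase count was 5 with control array 2 left out, 6 with control array 1 left out, 8 without courtship array 4 or male array 2 or 3, 9 without control array 4 or courtship array 5, and 24 without courtship array 2.

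Genes of the head fat body and of nutrient metabolism stood higher in part. Of 23 head fat body genes 17 were positive and 7 (30.4%) passed the unadjusted threshold higher, with a median of 0.08. They were Lsp2, a storage protein, tobi, a glucosidase gene that insulin and glucagon-like signals control, fit, a secreted peptide gene known for female-biased expression, Npc2h and Npc2g, sterol-binding protein genes, Lsd-1, the lipid droplet perilipin, and Obp99b, an odorant-binding protein. Lsp2 read 10.70, 11.25, 11.74, 11.28 and 10.98 in control, 11.76, 11.71, 11.30, 12.03 and 11.81 in courtship and 12.29, 12.35, 11.55, 11.91 and 11.65 in male arrays. The groups of Lsp2 overlapped, with 6 of 10 exposed arrays above control array 3, and its difference was 0.65 ± 0.18. fit read between 11.90 and 12.35 in control and between 11.95 and 13.02 in exposed arrays, a difference of 0.47 ± 0.14, with 0.49 in courtship and 0.46 in male arrays. The count of 7 dropped to 4 without control array 2. In glycolysis and sugar storage 18 of 22 were positive and 5 (22.7%) passed higher, led by Hex-C (0.53 ± 0.15) and the gluconeogenic gene fbp (0.42 ± 0.14), and the 5 became 3 without control array 1, 2 or 5 or male array 3. Of 28 insulin, sugar and fasting genes, 4 (14.3%) passed higher, sug, tobi, Pepck2 and daw, and the median was -0.01. Odorant-binding proteins, carriers of odorants and other ligands in sensilla and blood, were positive in 20 of 20, with 5 (25.0%) past the threshold and Obp28a at 1.13 ± 0.38. That count was 9 without courtship array 2, 2 without control array 2, courtship array 4 or 5 or male array 3 or 5, and 3 without control array 1, 3 or 4, courtship array 3 or male array 1 or 2.

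Genes of neuronal excitability stood lower as a rule. Of 18 potassium channel genes 17 had a negative difference, 15 of them in both arms, and 5 (27.8%) passed lower, with a median of -0.29 (-0.17 in courtship, -0.39 in male arrays). Besides Sh these were Shab, a delayed rectifier (-0.53 ± 0.14), SK, a calcium-activated channel (-0.67 ± 0.25), Elk (-0.52 ± 0.24) and qvr (quiver or sleepless), a membrane-anchored regulator of Sh (-0.29 ± 0.09). All 14 sodium and calcium channel genes were negative, 11 of them in both arms, with a median of -0.41 (-0.17 in courtship, -0.56 in male arrays). Past the unadjusted threshold were 5 (35.7%), among them stj, an auxiliary calcium channel subunit (-0.53 ± 0.15), and the pore subunit Ca-alpha1D (-0.36 ± 0.11). The others were NaCP60E (-0.94 ± 0.33), unc80 (-0.56 ± 0.20) and Ih (-0.17 ± 0.07). The sodium and calcium channel count became 8 without courtship array 2.

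Synaptic genes followed the same direction. All 30 presynaptic genes were negative, 27 of them in both arms, with a median of -0.23 (-0.09 in courtship, -0.34 in male arrays). At the unadjusted threshold 6 (20.0%) passed. These were Rim, unc-13, which primes vesicles (-0.33 ± 0.11), the active zone scaffold Liprin-alpha (-0.59 ± 0.20), Cirl (-0.35 ± 0.12), the scaffold dlg1 (-0.21 ± 0.09) and Syn, synapsin (-0.41 ± 0.18). The count was 3 without control array 2 and 11 without courtship array 2. All 11 acetylcholine receptor genes were negative, with 4 (36.4%) passing, nAChRalpha2, nAChRalpha5, nAChRalpha7 and nAChRbeta1, and 2 without control array 2, 3 or 4. GABA and glutamate genes (15 of 19 negative, 3 passing) and monoamine genes (15 of 19 negative, 2 passing) showed smaller counts, and Ddc, the decarboxylase that makes dopamine and serotonin, led the latter at -0.38 ± 0.12. Among learning and memory genes 19 of 20 were negative and 3 passed, with the adenylate cyclase gene rut at -0.90 ± 0.34. In both arms 15 of the 20 were lower, with medians of -0.07 in courtship and -0.26 in male arrays. The learning count was 1 without control array 2 or 4, 5 without control array 1 or male array 1 and 7 without courtship array 2. The GABA and glutamate count was 6 without male array 1, 7 without control array 5 and 8 without courtship array 2, and the monoamine count 4 without courtship array 2. The male value of rut, 6.09 ± 0.82 (SD, n = 5) included 4.66 in male array 5.

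Neuron markers stood lower beside these groups. The summed level of the 11 neuron markers, all tested, ranged from 15.39 to 15.80 in control, from 15.31 to 15.66 in courtship and from 14.98 to 15.45 in male arrays. All 11 had a negative difference, 9 of them in both arms, with a median of -0.42 (-0.17 in courtship, -0.56 in male arrays). futsch, a neuronal microtubule-binding protein (-0.42 ± 0.11), Appl (-0.46 ± 0.14), CadN (-0.68 ± 0.24) and Syn passed the unadjusted threshold. elav, the pan-neuronal RNA-binding protein, read 8.36 in control, 8.39 in courtship and 7.93 in male arrays. Of the other markers, the summed level of 10 fat body markers, 8 of them tested, ranged from 16.13 to 16.29 in control, 16.21 to 16.39 in courtship and 16.30 to 16.36 in male arrays. For 20 glial markers (19 tested) it was 15.17 to 15.43, 15.28 to 15.47 and 15.29 to 15.46. For 22 muscle markers (19 tested) it was 15.54 to 15.63, 15.36 to 15.69 and 15.25 to 15.56. The part of cell makeup in the list differences was not tested.

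Without male arrays 1 and 5, which had the highest 3'-to-5' ratios of the exposed arrays, the medians of the lists below kept their sign and became smaller. All genes then had 7.66% higher and 6.34% lower at the unadjusted threshold. The neuron markers had 9 of 11 negative, 4 passing and a median of -0.30, sodium and calcium channels 13 of 14 negative, 5 passing and -0.25, presynaptic genes 29 of 30 negative, 9 passing and -0.14, and potassium channels 15 of 18 negative, 8 passing and -0.18. Neprilysins had 18 of 20 positive, 11 passing and a median of 0.31, and the proteasome 26 of 27 positive, 9 passing and 0.15. Sh then differed by -0.56, CG10621 by 0.61 and CG9377 by 0.90, against -0.60, 0.62 and 1.0 with all arrays. Rim differed by -0.82 in its leading probe set, against -1.0 with all arrays.

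Without courtship array 2, 18.1% of all genes stood higher and 9.26% lower at the unadjusted threshold, and 1.63% and 0.260% passed the adjusted one in limma. That array was singled out by its effect on these same values, so the counts below describe this setting and test nothing. In the direction of the list median, 15 of the 20 neprilysins then passed the unadjusted and 5 the adjusted threshold, Nepl5, Nepl13, Nepl14, Nepl15 and Nepl19. Of the 27 proteasome subunits 19 and 3 did (Rpt4, Prosalpha3 and Prosalpha7), and of the 57 P450 genes 28 and 2 (Cyp12a4 and Cyp9c1). Of the 18 potassium channel genes 7 and 2 did (Sh and Shab), and of the 33 splicing factors 12 and 3.

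Splicing and RNA-binding factors were lower in 29 of 33 with 8 (24.2%) passing, mbl, B52, glo, qkr58E-1, Rbfox1, Hrb98DE, Sxl and hfp, and a median of -0.16. In both arms 23 of the 33 were lower, with medians of -0.10 in courtship and -0.23 in male arrays. glo, an RNA-binding protein of the hnRNP family, differed by -0.32 ± 0.08, and the count stayed between 6 and 12 with any array left out. Among chromatin regulators 28 of 37 were negative, 6 (16.2%) passed lower and 1 higher, and the median was -0.05. Those lower included the histone methyltransferase genes trx (-0.22 ± 0.07), trr (-0.24 ± 0.09) and gpp (-0.40 ± 0.14).

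Phototransduction genes were negative in 17 of 23, with 5 (21.7%) lower and 1 higher, led by rdgA, an eye diacylglycerol kinase gene (-0.44 ± 0.14), and the 5 became 3 without control array 2 or 3. Clock genes were negative in 15 of 20, and in both arms in 11, with medians of -0.03 in courtship and -0.17 in male arrays. The unadjusted threshold was passed by 4. That count was 0 without control array 4, 1 without control array 2 or 3, courtship array 5 or male array 1, 2 or 4, and 2 without control array 5 or male array 3 or 5. In the sex determination and courtship list 3 of 18 passed on each side. fru, the gene that specifies male courtship circuits, read 10.1 in control, 9.95 in courtship and 9.58 in male arrays (-0.36 ± 0.12), retn -0.33 ± 0.12 and Sxl -0.16 ± 0.07 relative to control, and fit, lush and Obp99b were the higher 3. Without control array 2 the lower 3 became 1. Among Notch target and Hairy-type repressor genes 7 of 11 were positive and 3 passed higher, E(spl)mbeta-HLH (0.44 ± 0.13), E(spl)m3-HLH (0.44 ± 0.20) and E(spl)m2-BFM (0.25 ± 0.11), a count that was 1 without control array 1 or courtship array 3 or 5. E(spl)mbeta-HLH read between 7.38 and 7.96 in courtship and between 7.17 and 7.59 in male arrays, against 6.90 to 7.25 in control.

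Heat shock and chaperone genes had 0 of 19 past the unadjusted threshold in limma and a median of -0.02. Their highest count with 1 array left out was 2, without courtship array 2. Activity-regulated genes had 2 of 18 higher and 2 lower, the lower count being 0 without control array 2 and 1 without control array 4, with Reg-2 at 0.25 in the courtship arm and 0.73 in the male arm. Muscle genes had 18 of 19 negative, 13 of them in both arms, with 0 passing. Vacuolar ATPase genes had 13 of 18 negative, 11 of them in both arms, with 0 passing, and chemoreceptor genes had 0 of 5 passing. Without courtship array 2, 2 muscle genes and 3 vacuolar ATPase genes passed on the lower side.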

How the data were processed

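RNA from male heads was hybridised to Affymetrix Drosophila arrays, and the authors deposited linear intensity values of each array in 5 processings, named per the file headers as R GCRMA, GeneSpring GCRMA, MAS5, dChip PM and dChip PM-MM. GCOS 1.2 and GCRMA are named in the submitters' processing notes, and no genome build or parameters are given in the sources used here. The R GCRMA intensities were turned to log2, 183 Affymetrix control probe sets were left out, and 8926 of 18769 probe sets with a mean of at least 4 were tested. Exposed arrays (10) were compared with control arrays (5) in limma 3.58.1 (R 4.3.3, lmFit and eBayes, 13 residual degrees of freedom), with Benjamini-Hochberg adjustment over 8926 probe sets and a threshold of 0.05. A model of 3 arms gave each arm's difference and courtship minus male with 95% intervals. Symbols came from the platform annotation: of 18769 probe sets 13647 had 1 symbol, 402 several and 4720 none, and a gene is named from a probe set with 1 symbol only.

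Genes named were the 12 higher and 12 lower with the smallest unadjusted p, 1 sign in both arms and in at least 3 processings, plus the leading member of each list by p. Apart from fixed markers such as elav, other list members were named after their values were seen. Further exceptions are marked in the text. The members and the lists were chosen with earlier results of these data known. No sequences and no genome coordinates are given. Precision is limited by the number of arrays. The model was tested on simulated data. Alternatives were the other 4 processings, 2 filters, other scalings and models, blocks, covariates and leaving out arrays.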

Additional observations from a re-analysis of the deposited data

Results flagged for a closer look

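In each group of 5 arrays of the 58 named probe sets, the highest or lowest array was examined for a wide gap to the others, in 174 groups. A gap above Dixon's 95% critical value was found in 11, where about 1 in 20 groups is expected by chance. Male array 1 was apart in 4 of them. It read 8.67 for CG9377 against 7.97 to 8.17 in the other male arrays, 7.59 for E(spl)mbeta-HLH against 7.17 to 7.26, 7.72 for the vacuolar ATPase gene Vha36-3 against 8.10 to 8.25, and 13.45 for the serpin gene Spn43Ab against 13.55 to 13.58. Male array 5 read 4.66 for rut against 6.19 to 6.72, and male array 2 read 5.73 for the juvenile hormone esterase gene Jhe against 6.36 to 6.55.

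Among control arrays, array 1 read 7.21 for abs against 7.33 to 7.36, and array 4 read 5.08 for CG15554 against 4.64 to 4.75 and 4.02 for the scavenger receptor gene Sr-CI against 4.63 to 4.84. Control array 5 read 13.01 for Drsl5, a drosomycin-like gene, against 12.55 to 12.69, and control array 2 read 13.06 for Spn43Ab against 13.30 to 13.37. No courtship array stood apart by this measure, courtship array 2 included.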

How the results depend on the processing

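The number of probe sets past the adjusted threshold in limma, 0 with all arrays and the R GCRMA values, ran from 0 to 1274 over the alternatives. It was 3 (1 higher, 2 lower) with dChip PM, 2 (0 higher, 2 lower) with dChip PM-MM, 1 (0 higher, 1 lower) with GeneSpring GCRMA, 2 (1 and 1) with a filter at a mean of 6, 4 (1 and 3) in the 3-arm model, 4 (1 and 3) with arrays centred on their median, 3 (1 and 2) after quantile normalization, 2 (1 and 1) with a trended robust prior and 4 (1 and 3) at an adjusted p of 0.10. Array weights gave 1274 (606 higher, 668 lower), with weights of 0.193 for male array 1, 0.225 for male array 5 and 0.43 for courtship array 2, and they were estimated from the same values. In each of these settings every called probe set had 1 sign in both arms, which the fits that pool the arms nearly fix in advance. MAS5, no filter, a block for the initial letter of sample codes, a covariate for the 3'-to-5' ratio, and leaving out male arrays 1 and 5 with or without control array 1 gave 0. With 1 array left out the count ran from 0 to 163, from 0 to 129 higher and from 0 to 34 lower, with the top of each range without courtship array 2. The cause was not tested. With 1 array left out, the number at an unadjusted p under 0.05 ran from 817 without control array 2 to 2407 without courtship array 2. It was 3189 with array weights and 421 with the sample-code block.

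Replicate numbers 1 to 5 recur in each arm. The correlation of same-numbered arrays' deviations ran from -0.288 to 0.473 and was positive for most pairs of arrays. The labels do not say that the numbers mark pairs, and the main fit left them out. With the replicate number as a block 0 probe sets were called in limma (smallest adjusted p 0.0512), and 1689 had an unadjusted p under 0.05, against 1445 without the block. All 24 leading genes kept their sign in every alternative. These genes were chosen by a small p and by an unchanged sign in some of the deposited processings. Their kept signs were therefore nearly fixed in advance and test nothing. Of the 58 named probe sets, Ir76a, a receptor gene that leads the chemoreceptor list at 0.09, changed sign, to -0.046 with MAS5, -0.043 with dChip PM and -0.0071 with dChip PM-MM. Medians near 0 changed sign in some settings for the insulin, heat shock, Toll and Imd, antimicrobial, chemoreceptor, cytosolic ribosomal, Notch target and fat body marker lists. The 5 processings come from the same 15 arrays and are not independent.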

Other observations

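Antimicrobial peptide genes, effectors of the humoral immune response, varied widely between pools of the same arm in AttD and Def. The difference of greatest size among all tested genes with 1 symbol was that of AttD, an attacin gene, named here after its values were seen. AttD averaged 8.72 ± 4.06 (SD, n = 5) in control, 5.85 ± 2.93 in courtship and 7.66 ± 2.88 in male arrays, a difference of -1.96 ± 1.65 with an unadjusted p of 0.253 in limma. Def, the defensin gene, averaged 11.63 ± 2.0 in control, 10.21 ± 1.73 in courtship and 11.22 ± 1.43 in male arrays, a difference of -0.91 ± 0.87 with an unadjusted p of 0.309. Of the 14 measured genes of this class 8 had a positive difference and 1, Drsl5 (0.55 ± 0.14), passed the unadjusted threshold. That count was 3 without control array 1 and 2 without control array 5 or courtship array 1, 2 or 3.

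Immune recognition and signalling genes of the Toll and Imd pathways had 17 of 27 positive, 11 of them in both arms. The unadjusted threshold was passed by 4, led by the adaptor gene Myd88 (0.24 ± 0.10), and the count was 1 without control array 2 and 2 without control array 4. Glial markers had 15 of 19 positive and 1 past the threshold on each side. Their higher count was 4 without courtship array 2, 3 without control array 4 and 2 without control array 3 or 5 or courtship array 1 or 3. The gene past it on the higher side was rumpel, a solute carrier gene of glia (0.53 ± 0.19).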
